A study of Mus musculus with 12 samples.

Results

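The solute carriers (SLC) are the membrane proteins that move nutrients, ions, metals and metabolites across cell membranes without burning ATP themselves. Of the 54532 genes in the deposited count table, 369 protein-coding genes carry a solute carrier name (Slc, a family number, a letter and a member number), and the 147 with a mean of at least 50 counts over all libraries are described here. They were sorted by hand into 52 carriers of the plasma membrane, 44 of organelles (Golgi, endoplasmic reticulum, lysosomes, endosomes and vesicles) and 36 of the Slc25 family, most of them mitochondrial. A further 12 have a mixed or unsettled residence, and 3 (Slc4a1ap, Slc7a6os and Slc9a3r1) share the name pattern but are not carriers. The members were thus chosen by their names and by the mean raw count over all 12 libraries, so their levels are a description. The lowest members were Slc16a11 at 51.7, Slc4a9 at 53.8 and Slc26a6 at 54.7 mean counts. Just outside stood Slc4a8 at 49.1, Slc2a9 at 44.7 and Slc5a6, the carrier of biotin and pantothenate, at 44.4.

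The 12 libraries came from cultured mouse keratinocytes labelled as wild type and carrying DP-BirA(1-584), the biotin ligase BirA joined to residues 1 to 584 of desmoplakin, the protein that ties keratins to desmosomes. All 4 groups shared this fusion, 2 µg/mL doxycycline to switch it on, calcium to start differentiation, and a 16 h biotin pulse. They differed in wounding (wounded or unwounded cultures) and in fraction. Ribosome-bound RNA from a sucrose gradient was passed over neutravidin, which holds biotin. RNA kept by the resin is called cortical, RNA that passed is called total, and each group had 3 libraries named as biological replicates. The total fraction is therefore the depleted remainder, and nothing in the labels says whether a cortical and a total library came from 1 culture.

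Carriers of the plasma membrane, the Golgi and the lysosome are made on ribosomes docked to the endoplasmic reticulum and then sorted by vesicles. Most Slc25 proteins enter the inner mitochondrial membrane without passing through the secretory pathway. The class follows the family name, and a few members reside elsewhere, such as Slc25a17 in peroxisomes. In epidermis, carriers supply glucose, amino acids and cystine to dividing basal cells, and zinc carriers load zinc into secretory compartments.

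Depth ran from 8980013 to 23457548 counts per library. The first wounded total library stood apart: 13117 genes had a count there, against 14393 to 16867 in the others, and 1 of the 147 members was at 0 in it. All 10 keratinocyte markers were found, with summed levels of 9443 to 19677 CPM (library-scaled counts, with TMM factors). Markers of other cell types summed to at most 6.47 CPM for fibroblasts, 2.27 for melanocytes, 1.87 for endothelium and 0.285 for immune cells, with Dcn, Thy1, Tyr, Tyrp1, Lyz2, Csf1r and Cdh5 at 0 throughout. Keratinocyte genes themselves moved with the groups: 7 of the 10 were higher and 1 lower in cortical than in total RNA of unwounded cells, and 2 were higher and 1 lower in wounded cells. On wounding 5 rose and 1 fell in total RNA, and 3 rose in cortical RNA. The shares of all genes called stand beside each comparison of the carriers. Their part in the results on carriers was not tested. Since these are bulk libraries, fewer cells of a kind and less RNA per cell cannot be told apart.

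Levels were compared per gene length. The 36 Slc25 members had a median of 5.92 FPKM over the 12 libraries (range 0.821 to 491), against 2.86 for the plasma membrane members (0.288 to 98.1) and 2.51 for the organelle members (0.358 to 44.3). The highest levels were those of the ADP/ATP exchanger Slc25a5 at 491 FPKM, the phosphate carrier Slc25a3 at 179, the second ADP/ATP exchanger Slc25a4 at 177, and Slc25a39, a carrier linked to mitochondrial glutathione, at 169. Slc25a5 has many processed copies in the genome, so its level is uncertain. Next came Slc3a2 at 98.1 FPKM, the heavy chain shared by several amino acid exchangers, and the citrate carrier Slc25a1 at 80.5. Slc48a1, which moves haem out of lysosomes, was the leading organelle member at 44.3 FPKM.

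Summed over a class, the plasma membrane members reached 1494 ± 49.2 CPM (SD, n = 3) in unwounded total RNA and 1846 ± 42.2 in unwounded cortical RNA. In wounded cells the sums were 1604 ± 60.1 in total and 1859 ± 15.5 in cortical RNA. No cortical library overlapped a total library of the same wounding state. The organelle sums were 944 ± 9.02 and 1081 ± 20.6 CPM in unwounded total and cortical RNA, and 901 ± 21.1 and 1053 ± 5.20 in wounded. They too did not overlap between fractions. The Slc25 sums were 3806 ± 89.6 and 3946 ± 44.2 CPM in unwounded total and cortical RNA, and 3645 ± 117 and 3948 ± 34.4 in wounded. These did not overlap between fractions either, but the gap was small against the level. In unwounded cells the highest total library stood at 3892 CPM and the lowest cortical one at 3908. In wounded cells the highest total library stood at 3716 CPM and the lowest cortical one at 3909. The gap depends on the scaling. As a share of raw counts, Slc25 members held 0.354% to 0.373% in unwounded total and 0.428% to 0.436% in unwounded cortical libraries. In wounded ones the shares were 0.292% to 0.391% and 0.415% to 0.416%. Slc25a3 alone stood at 911 to 953 CPM in unwounded total and 1082 to 1116 in unwounded cortical libraries. In wounded ones it stood at 821 to 927 and 1093 to 1119. Sums without it were not computed.

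**Figure D1:**
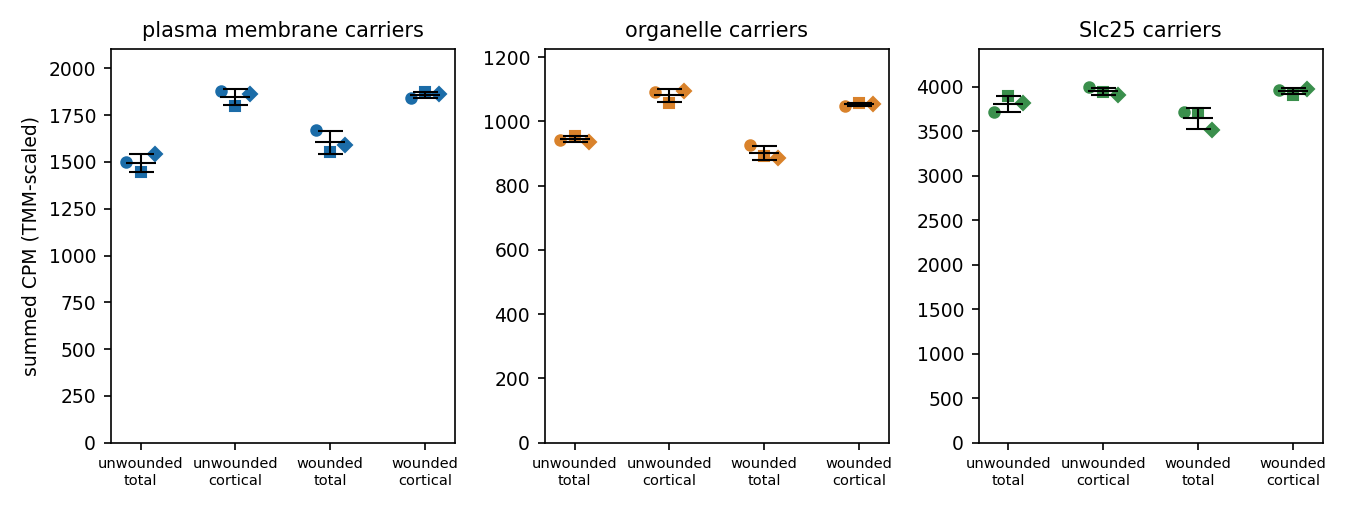
Summed CPM (TMM-scaled, axis from 0) of the plasma membrane, organelle and Slc25 members in each library; circles, squares and diamonds are replicates 1, 2 and 3, and bars are the mean and SD of 3 libraries. Plasma membrane and organelle sums are higher in both cortical groups than in both total groups. The Slc25 sums are too, with a gap that on this scale is small against their level: 3510 to 3892 CPM in total and 3908 to 3994 in cortical libraries.

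The first comparison asks which carrier messages are held more by the cortical than by the total translating fraction in unwounded cells. Of the 147 members, 21 were higher in cortical RNA and 0 were lower, with 1 lower at an unadjusted p under 0.05 and 0 called lower by DESeq2 (edgeR quasi-likelihood test, Benjamini-Hochberg adjusted p under 0.05 over 13571 genes). Among all genes tested, 6.62% were higher and 7.59% lower. Among the 9714 protein-coding genes with the same mean count, 9.1% were higher and 9.89% lower, against 14.3% and 0% of the members. By class, 10 of 52 plasma membrane, 7 of 44 organelle and 1 of 36 Slc25 members were higher, together with 3 of the 12 of unsettled residence. The median log2 fold change was 0.27 for plasma membrane, 0.23 for organelle and 0.02 for Slc25 members, and 0.00 for all genes. Positive values were seen for 42 of 52, 32 of 44 and 20 of 36 members.

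**Figure D2:**
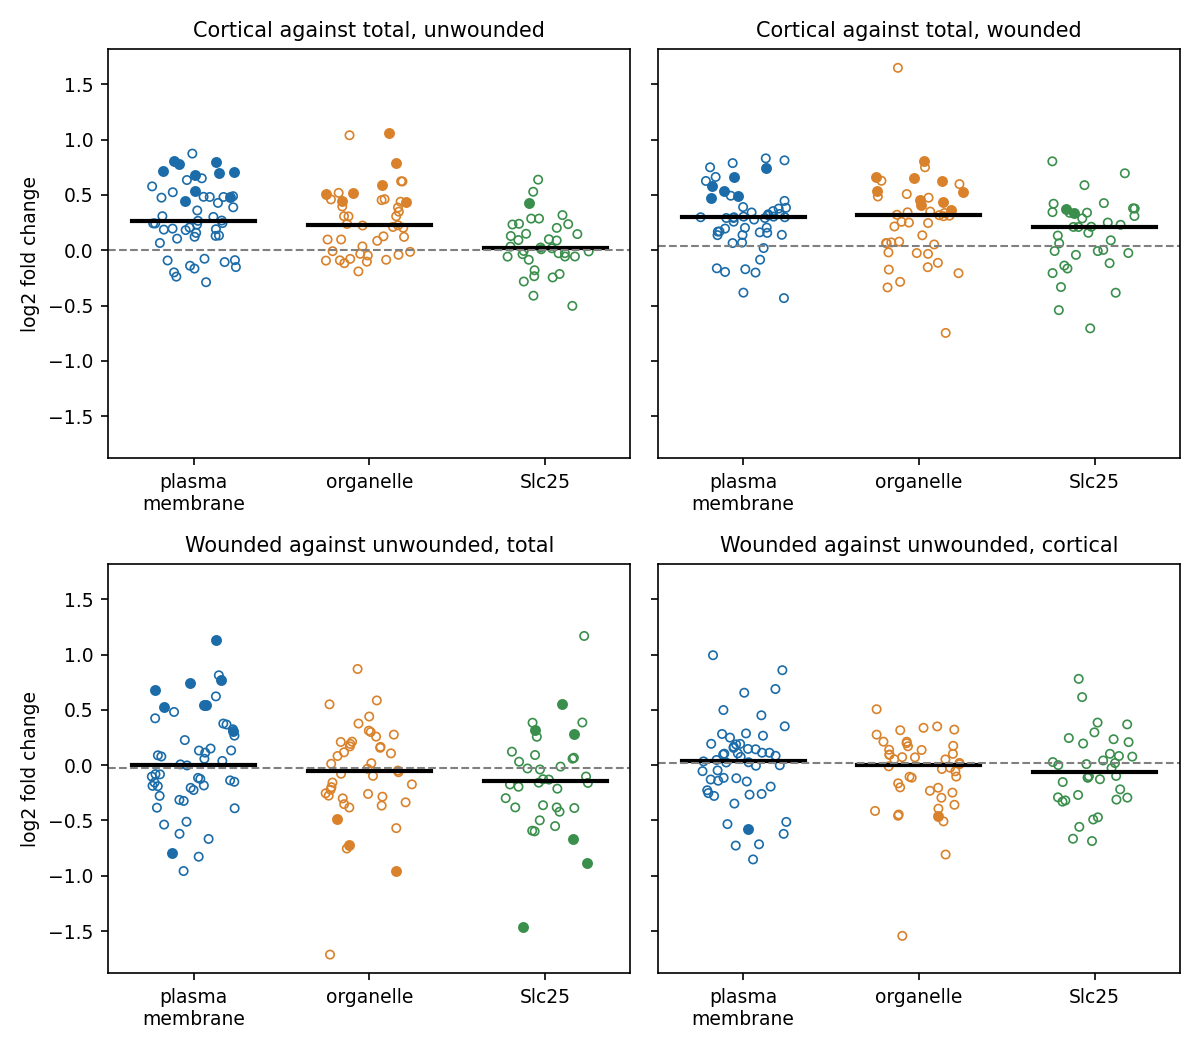
Log2 fold change of each member by class in the 4 comparisons between groups; filled points passed an adjusted p of 0.05, black bars are class medians and the dashed line is the median of all genes tested. In unwounded cells the plasma membrane and organelle medians (0.27 and 0.23) stand above the dashed line and the Slc25 median (0.02) lies on it.

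Glucose and amino acid uptake genes were among the plasma membrane members that rose. Slc2a1 (GLUT1, ENSMUSG00000028645, GRCm38 chr4:119108711-119137983), the main glucose carrier of keratinocytes, had 61.3, 57.6 and 70.6 CPM in unwounded total and 119, 104 and 110 CPM in unwounded cortical RNA. Every cortical library stood above every total library. Its log2 fold change was 0.81 (SE 0.13, adjusted p = 0.000759). Slc7a1 (CAT1, chr5:148327410-148399904), which takes up arginine and lysine, had 46.6, 44.8 and 49.4 CPM in total and 79.6, 88.7 and 75.8 CPM in cortical RNA. Again no values overlapped, and the log2 fold change was 0.79 (SE 0.14, adjusted p = 0.0018). Both calls held under every alternative tried.

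Slc7a11 (xCT, ENSMUSG00000027737, chr3:49892526-50443614), the cystine and glutamate exchanger that feeds glutathione synthesis, had 21.2, 25.8 and 25.8 CPM in total and 41.9, 36.8 and 41.1 CPM in cortical RNA. All cortical values were above all total values, with a log2 fold change of 0.72 (SE 0.14, adjusted p = 0.00252), and the call held under every alternative. Its promoter is shown because Slc7a11 is a known target of ATF4, and because members linked to ATF4 appear on both sides of the wounding results. The 250 bases before its RefSeq start site (GRCm38.p6, chr3:50443614-50443863, minus strand) follow, with matches to the composite ATF and C/EBP motif TGATGNAA, searched on both strands, in capitals.
Slc7a11 promoter: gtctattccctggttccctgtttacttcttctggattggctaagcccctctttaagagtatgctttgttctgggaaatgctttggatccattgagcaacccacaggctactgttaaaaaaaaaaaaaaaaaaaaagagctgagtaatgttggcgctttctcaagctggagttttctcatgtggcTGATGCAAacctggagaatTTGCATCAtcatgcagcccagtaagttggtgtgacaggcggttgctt
The matches begin 66 and 47 bases before the start site, 1 on each strand. Of 32851 promoter windows of this length, 3.45% held a match, against 2 of the 148 windows of members (1.35%). Counted by gene, 2 of the 115 members with a window had a match (1.74%), Slc7a11 and Slc50a1. A match is a run of letters and not a measured binding site.

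Of the 10 plasma membrane members that carry amino acids, 3 were higher and all 10 had positive values, with a median log2 fold change of 0.45, beside 6.62% and 0.00 for all genes. In wounded cells 2 of the 10 were higher, 9 had positive values and the median was 0.29, beside 7.62% and 0.04. The third call was Slc38a2 (SNAT2), which takes up glutamine and alanine with sodium: 64.6, 51.1 and 52.5 CPM in total and 102, 82.4 and 90.2 in cortical RNA, with no overlap and a log2 fold change of 0.71 (SE 0.22, adjusted p = 0.0413). That call was lost when any 1 of 8 libraries was left out (unwounded total replicates 2 and 3, and each unwounded and wounded cortical replicate), with adjusted p up to 0.157. Slc3a2, the common heavy chain, had 323, 304 and 313 CPM in total and 328, 327 and 330 in cortical RNA, with a log2 fold change of 0.07 (SE 0.09, adjusted p = 0.743). Its partner Slc7a5 (LAT1), which imports leucine and other large amino acids, had a log2 fold change of 0.27 (adjusted p = 0.13). The lactate carrier Slc16a1 (MCT1) had 8.16, 9.94 and 14.3 CPM in total and 14.9, 19.9 and 15.5 CPM in cortical RNA, with an adjusted p of 0.101.

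Ion carriers made up the next group. Slc12a2 (NKCC1), which brings in sodium, potassium and chloride, had 19.8, 23.4 and 23.6 CPM in total and 31, 33.9 and 42.2 in cortical RNA. Cortical values were all higher, and the log2 fold change was 0.68 (SE 0.16, adjusted p = 0.00779; 0.0511 without unwounded cortical replicate 3). Slc20a2, a phosphate carrier, had 20.2, 16.5 and 20.8 CPM in total and 34, 31.4 and 33.8 in cortical RNA, with a log2 fold change of 0.78 (SE 0.20, adjusted p = 0.0155). That call was lost without unwounded total replicate 2 or unwounded cortical replicate 1 or 3, with adjusted p up to 0.085. Other plasma membrane calls were Slc39a6, a zinc importer outside the naming rule, at 0.54 and Slc23a2, an ascorbate carrier also outside it, at 0.45 (adjusted p = 0.0139 and 0.0382), lost without 3 and 7 single libraries with adjusted p up to 0.0817 and 0.193. The choline carrier Slc44a2, outside the naming rule and chosen after its values were seen, had 87.8, 86.6 and 95.7 CPM in total and 122, 129 and 126 in cortical RNA. It did not overlap, with a log2 fold change of 0.48 (SE 0.11, adjusted p = 0.00725) and a call that held under every alternative.

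The organelle call with the largest log2 fold change was a zinc carrier. Slc30a6 (ZnT6, ENSMUSG00000024069, chr17:74395621-74424221), which works with Slc30a5 to load zinc into the early secretory pathway, had 8.99, 6.66 and 9.01 CPM in total and 19, 13.8 and 18.7 CPM in cortical RNA. All cortical values were above all total values, and its log2 fold change of 1.06 (SE 0.20, adjusted p = 0.00215) was the highest of the 147 members and held under every alternative. Slc30a5 (ZnT5) had 16, 14.3 and 16.6 CPM in total and 25.6, 20 and 24.7 in cortical RNA. Its log2 fold change was 0.59 (adjusted p = 0.0336), and the call was lost without any 1 of 5 libraries (each unwounded total replicate, unwounded cortical replicates 1 and 3), with adjusted p up to 0.148. Slc30a4 (ZnT4), a vesicle zinc carrier, had 30.5, 30 and 28.3 CPM in total and 39.3, 42.2 and 44.9 in cortical RNA, with a log2 fold change of 0.51 (adjusted p = 0.0192). Leaving out unwounded total replicate 2 or 3 or unwounded cortical replicate 2 or 3 ended that call, with adjusted p up to 0.0822.

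The other Slc30 members, grouped after their values were seen, had positive values too. Slc30a9, of unsettled residence and outside the naming rule, was called at a log2 fold change of 0.43, whereas Slc30a7 at 0.35 (adjusted p = 0.261) and the plasma membrane exporter Slc30a1 at 0.87 (adjusted p = 0.104) were not. Slc30a9 was no longer called without unwounded total replicate 1 or 2 or unwounded cortical replicate 1 or 3, with adjusted p up to 0.117. Outside the 3 classes and the naming rule Slc8b1 and Slc38a10 were called as well (0.45 and 0.48, lost without 4 and 5 single libraries, with adjusted p up to 0.118 and 0.163). The remaining organelle calls were Slc12a9, Slc39a11, Slc35e1 and Slc15a4, with log2 fold changes of 0.79, 0.51, 0.43 and 0.45. Slc35e1 and Slc15a4 are outside the naming rule. Each was lost without any 1 of 5 to 9 libraries, with adjusted p up to 0.148, 0.162, 0.190 and 0.204.

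The ADP/ATP exchangers overlapped between fractions. Slc25a5 (chrX:36795651-36798807) had 835, 905 and 892 CPM in total and 830, 796 and 854 in cortical RNA, with a log2 fold change of -0.09 (SE 0.10, adjusted p = 0.694). Slc25a4 had a log2 fold change of -0.06 (adjusted p = 0.826), and both changed sign with library size scaling (0.10 and 0.13) and with the gene length trend removed (0.16 and 0.10). Slc25a3 had 911, 946 and 953 CPM in total and 1116, 1112 and 1082 in cortical RNA. Its groups did not overlap, at a log2 fold change of 0.24 that did not pass (adjusted p = 0.109). The only Slc25 call was Slc25a51, the mitochondrial NAD carrier, with 69, 80.2 and 74.3 CPM in total and 111, 93.6 and 94.8 in cortical RNA. Its log2 fold change was 0.42 (adjusted p = 0.0355), and the call was lost without any 1 of 7 libraries (all 6 unwounded ones and wounded cortical replicate 1), with adjusted p up to 0.175.

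**Figure D3:**
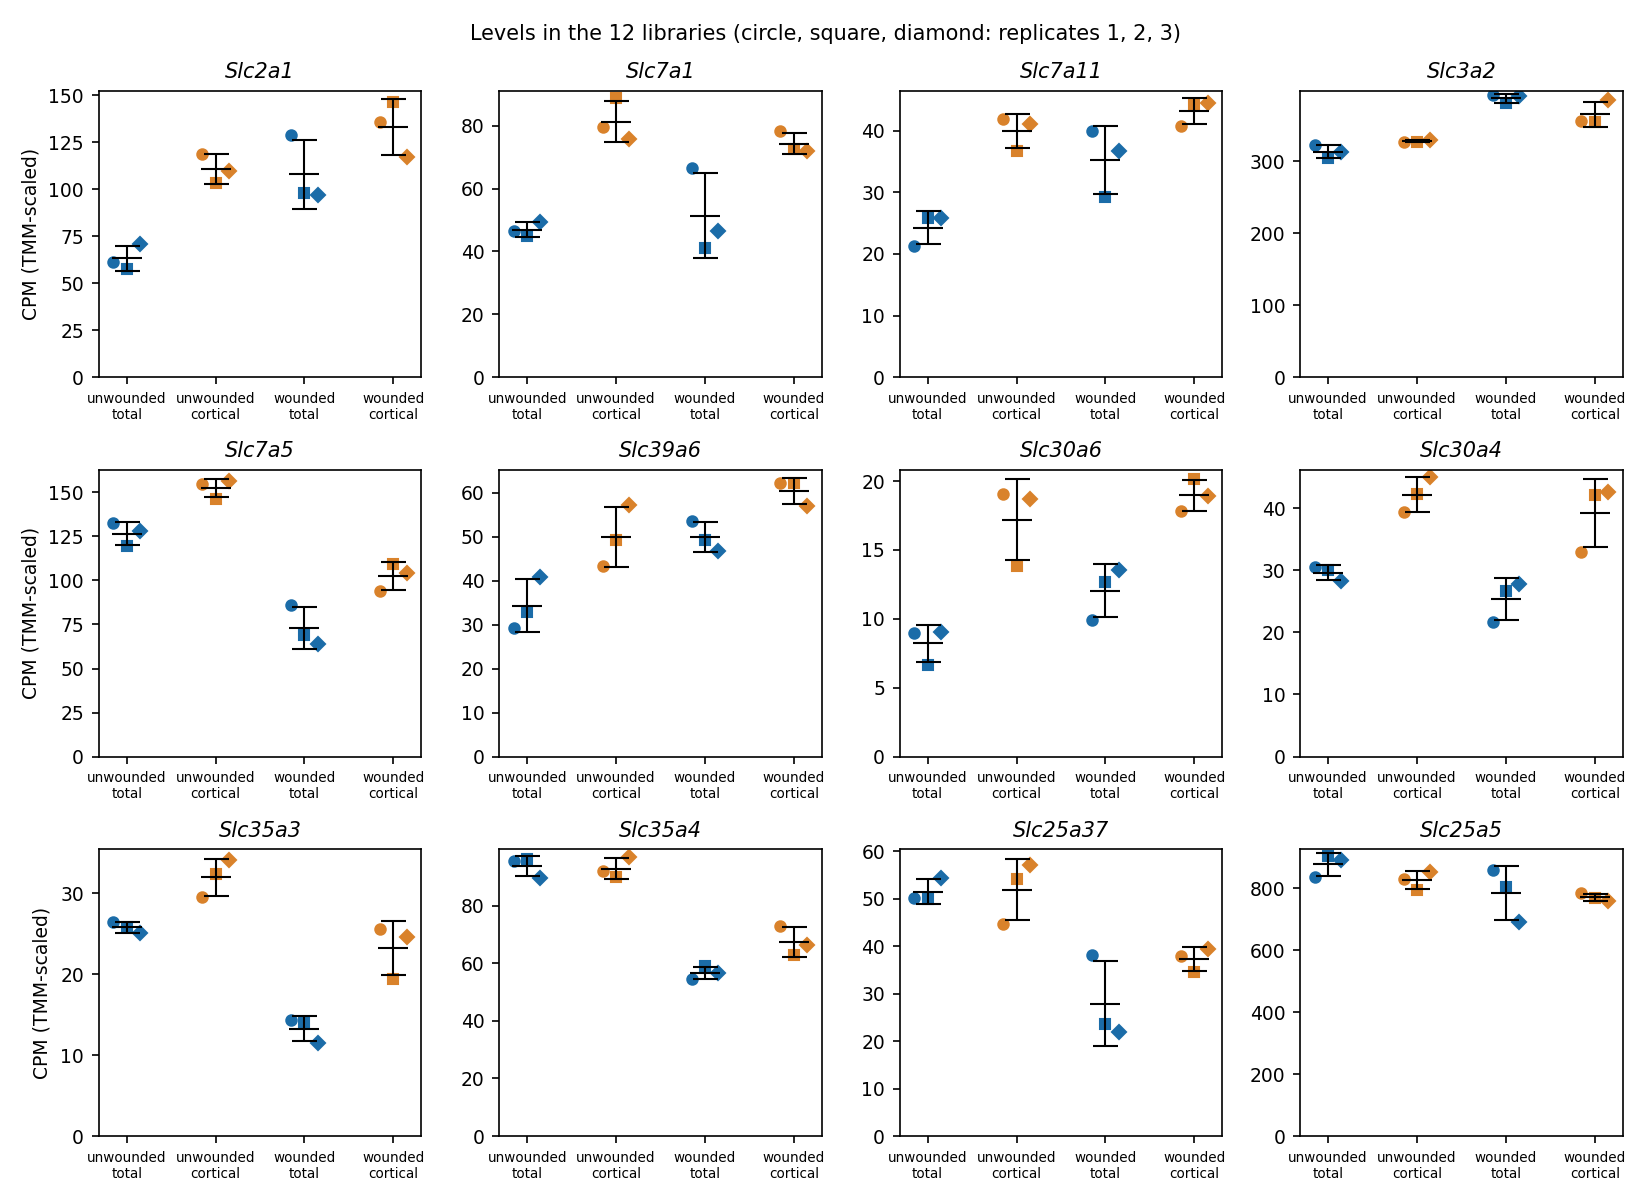
CPM (TMM-scaled, axes from 0) of 12 members in the 12 libraries; blue is total, orange is cortical, marker shapes are replicates 1 to 3, and bars are the mean and SD of 3 libraries. Slc2a1, Slc7a11 and Slc30a6 stand lowest in unwounded total RNA, whereas Slc7a5, Slc35a4 and Slc25a37 are lower in wounded than in unwounded total RNA.

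The count of 21 higher members depended on single libraries: it was 10 and 6 without unwounded total replicates 1 and 2, 8, 11 and 6 without unwounded cortical replicates 1, 2 and 3, and 32 without wounded total replicate 1. Library size scaling, which moved the median of all genes to 0.19, gave 34 higher members, of which 5 were Slc25.

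Coding length moved with this comparison. Across 11480 protein-coding genes the Spearman correlation of log2 fold change with the length of the coding sequence was 0.476, and across the 147 members it was 0.352. The points share the same 6 libraries, so this is a description. The classes differ in length, with median coding sequences of 1864.5 bases for plasma membrane, 1326 for organelle and 957 for Slc25 members, against 1383 for all genes tested. Within a class the correlation was 0.0934, 0.304 and -0.118. The fit that follows used gene length, which is another measure than coding length. Its class medians were 5284, 4595 and 3980.5 bases, against 3873 for all genes tested. Whether a trend on coding length remained after it was not tested. With a trend on gene length removed from every library, 13 members were called (8 plasma membrane, 4 organelle and 0 Slc25) and the class medians were 0.27, 0.22 and 0.13, beside 0.03 for all genes. The calls of Slc15a4, Slc23a2, Slc25a51, Slc30a5, Slc30a9, Slc35e1, Slc38a2 and Slc38a10 were among those it ended, as both log2 FPKM scales did, which also ended that of Slc12a9. Slc30a9 then had 0.22 (adjusted p = 0.322).

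**Figure D4:**
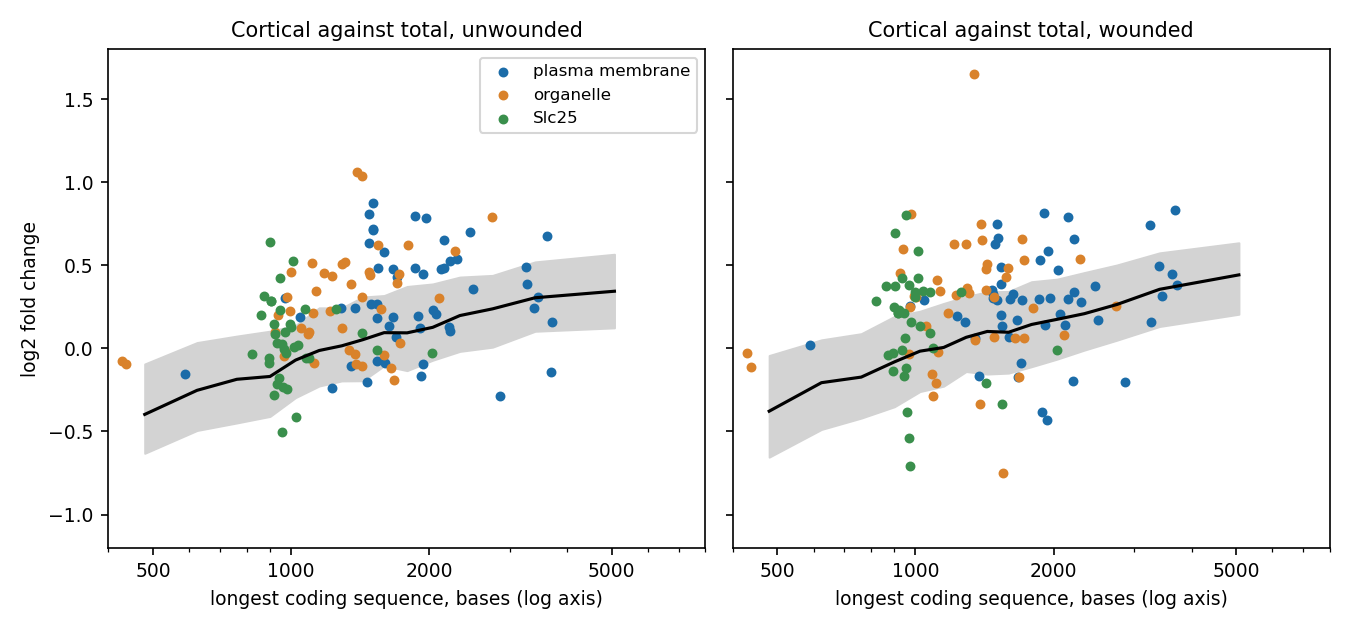
Log2 fold change of cortical against total RNA for each member against the length of its longest coding sequence (log axis), in unwounded and wounded cells; the black line and grey band are the median and quartiles of all protein-coding genes in bins of coding length. The line climbs with length, and the Slc25 members sit at the short end, with a median of 957 bases.

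The same fraction comparison in wounded cells sets other libraries against each other than the first. Both rest on 1 estimate of the spread over all 12 libraries, so their calls are not independent. Here 18 members were higher in cortical RNA and 1, Slc9a3r1, was lower, beside 7.62% higher and 8.03% lower among all genes tested. Among the 9714 coding genes of the same mean count, 10.3% were higher and 10.2% lower. The calls were 6 of 52 plasma membrane, 10 of 44 organelle and 2 of 36 Slc25 members. Medians were 0.30, 0.31 and 0.21, with 0.04 for all genes, and positive values numbered 45 of 52, 34 of 44 and 24 of 36. The members called higher in both wounding states were Slc7a1, Slc15a4, Slc23a2, Slc30a4, Slc30a5 and Slc30a6. These 6 are 28.6% of the unwounded and 33.3% of the wounded calls. The same overlap was not computed for all genes tested, so it is a description of the members only.

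Slc35a3 (ENSMUSG00000027957, chr3:116669470-116712831), which brings UDP-N-acetylglucosamine into the Golgi for glycan branching, had 14.4, 14 and 11.5 CPM in wounded total and 25.6, 19.4 and 24.6 CPM in wounded cortical RNA. The groups did not overlap, and the log2 fold change was 0.81 (SE 0.15, adjusted p = 0.00214). In unwounded cells its log2 fold change was 0.31 (adjusted p = 0.191). Slc30a4 had 21.6, 26.7 and 27.8 CPM in total and 32.9, 42.1 and 42.6 in cortical RNA. It did not overlap, at a log2 fold change of 0.63 (SE 0.14, adjusted p = 0.00612), and this call held under every alternative.

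Slc30a6 had 9.91, 12.7 and 13.5 CPM in wounded total and 17.8, 20.1 and 18.9 in wounded cortical RNA. Cortical values were again all higher, at a log2 fold change of 0.65 (SE 0.19, adjusted p = 0.0319). The call was lost without wounded total replicate 1 or 2 or any wounded cortical replicate, with adjusted p up to 0.0976. Slc30a5 was called at 0.54 (adjusted p = 0.049), a value just inside the threshold that 10 single libraries could each end (all 6 unwounded ones, wounded total replicates 2 and 3, wounded cortical replicates 1 and 2), with adjusted p up to 0.228. Slc30a7 and Slc30a1 had log2 fold changes of 0.34 (adjusted p = 0.247) and 0.75 (adjusted p = 0.141). Slc11a2 (DMT1), the iron carrier of endosomes, was higher by 0.66 (adjusted p = 0.0152), and the call was lost without wounded total replicate 3 or wounded cortical replicate 2 or 3, with adjusted p up to 0.0694. The remaining organelle calls, Slc15a4, Slc35b2, Slc35f5, Slc35f6 and Slc39a9, all outside the naming rule, had log2 fold changes between 0.36 and 0.53. They were lost without 2 to 8 single libraries each, with adjusted p up to 0.157.

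Among plasma membrane members, Slc23a2 had 17.7, 21.2 and 19.4 CPM in wounded total and 26.8, 31.6 and 29 in cortical RNA. The groups did not overlap (log2 fold change 0.58, SE 0.14, adjusted p = 0.0095). No single library ended the call, but removing the gene length trend did (0.35, adjusted p = 0.129, and 0.160 with the replicate block). Slc7a5 had 86.3, 68.8 and 64.1 CPM in total and 94.1, 109 and 104 in cortical RNA. Every cortical value was higher, with a log2 fold change of 0.49 (SE 0.11, adjusted p = 0.00841; 0.0528 without wounded total replicate 2). Slc7a1 had 66.7, 41.1 and 46.5 CPM in total and 78.3, 72.8 and 72 in cortical RNA, with the high total value in the first replicate. Its log2 fold change was 0.53 (SE 0.14, adjusted p = 0.0195), and the call was lost without wounded total replicate 2 or 3 or wounded cortical replicate 1 or 2, with adjusted p up to 0.114. It was also lost with only the wounded libraries (adjusted p = 0.0928), on both log2 FPKM scales (up to 0.0572) and with the gene length trend removed, where the value was 0.21 (adjusted p = 0.38).

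The other plasma membrane calls were the phosphate carrier Slc20a1 at 0.47, the potassium and chloride carrier Slc12a7 at 0.74 and the sulphate carrier Slc26a2 at 0.66 (adjusted p = 0.0285, 0.0298 and 0.0443). They were lost without any 1 of 4, 4 and 10 libraries, with adjusted p up to 0.148, 0.108 and 0.168. Slc2a1 and Slc7a11, both called in unwounded cells, had 129, 97.8 and 96.7 CPM and 40.1, 29.2 and 36.7 CPM in wounded total RNA. Their cortical values were 136, 146 and 117 CPM and 40.7, 44.4 and 44.5 CPM. Slc2a1 overlapped between fractions and Slc7a11 did not, and neither passed (log2 fold changes 0.30 and 0.29, adjusted p = 0.122 and 0.164). With the gene length trend removed the value of Slc7a11 was -0.076. Slc12a2 and Slc38a2 fell short as well, at 0.45 (adjusted p = 0.062) and 0.66 (adjusted p = 0.0564).

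Both Slc25 calls in wounded cells were small. Slc25a3 had 927, 868 and 821 CPM in total and 1099, 1119 and 1093 in cortical RNA, with no overlap and a log2 fold change of 0.34 (SE 0.09, adjusted p = 0.0218). The call was lost without wounded total replicate 2 or 3 or any wounded cortical replicate, with adjusted p up to 0.0782. The dicarboxylate carrier Slc25a10 was higher by 0.37 (adjusted p = 0.0384), with 8 single libraries ending the call at adjusted p up to 0.126. Slc25a5 at -0.03 (adjusted p = 0.909) and Slc25a4 at -0.14 (adjusted p = 0.434) did not pass. Slc9a3r1 (NHERF1), a scaffold that binds carriers at the plasma membrane and is outside the naming rule, was lower by a log2 fold change of -0.46 (adjusted p = 0.0332). Its call was lost without any 1 of 7 libraries, with adjusted p up to 0.121.

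The wounded count was 28 higher and 1 lower without wounded total replicate 1, and 8, 9, 7, 6 and 10 higher without wounded total replicates 2 and 3 and wounded cortical replicates 1, 2 and 3. It was 46 with library size scaling (median of all genes 0.25), 4 with the gene length trend removed (class medians 0.11, 0.12 and 0.16, all genes -0.04), and 3 when only the wounded libraries were fitted. With the length trend removed the members called were Slc7a5, Slc30a4, Slc30a6 and Slc35a3 (0.50 for Slc35a3, and adjusted p = 0.0647 with the replicate block as well). The lost calls included Slc12a7 at 0.40, Slc20a1 at 0.31, Slc26a2 at 0.31, Slc30a5 at 0.32, Slc25a3 at 0.18, Slc35f6 at 0.16 and Slc39a9 at 0.16. With only the wounded libraries, Slc23a2, Slc30a4 and Slc35a3 were called. The log2 FPKM scales ended the calls of Slc7a1, Slc12a7, Slc20a1, Slc25a10, Slc26a2, Slc30a5 and Slc39a9.

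Wounding was tested next, first in total RNA. This comparison shares the unwounded total libraries with the first comparison and the wounded total libraries with the second, so these results are not independent of each other. Of the 147 members, 12 rose and 9 fell, against 8.39% and 7.2% of all genes tested and 11% and 9.22% of the coding genes of the same mean count. Plasma membrane members made up 8 of the 12 that rose and 1 of the 9 that fell. Organelle members counted 0 up and 3 down, and Slc25 members 3 up and 3 down. Medians were 0.00, -0.06 and -0.14, with -0.03 for all genes.

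Several uptake genes rose. Slc2a1 went from 61.3, 57.6 and 70.6 CPM to 129, 97.8 and 96.7 CPM, without overlap, with a log2 fold change of 0.77 (SE 0.13, adjusted p = 0.000807). Slc7a11 went from 21.2, 25.8 and 25.8 CPM to 40.1, 29.2 and 36.7, without overlap, with a log2 fold change of 0.54 (SE 0.14, adjusted p = 0.0137; 0.091 without unwounded total replicate 1). Slc3a2, its heavy chain, went from 323, 304 and 313 CPM to 392, 381 and 390. The 3 wounded values were all higher and the log2 fold change was 0.31 (SE 0.09, adjusted p = 0.0291), a call that was lost without any 1 of 5 libraries (each unwounded total replicate, wounded total replicates 2 and 3), with adjusted p up to 0.105.

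Slc7a5, another partner of Slc3a2, moved the opposite way. It went from 132, 120 and 128 CPM to 86.3, 68.8 and 64.1 CPM, without overlap, with a log2 fold change of -0.79 (SE 0.11, adjusted p = 0.000252), under every alternative. Slc43a2 (LAT4), which carries large neutral amino acids without a heavy chain, rose from 4.17, 4.85 and 5.95 CPM to 10.3, 14.3 and 8.09 CPM. The groups did not overlap (log2 fold change 1.13, SE 0.29, adjusted p = 0.0159), though leaving out unwounded total replicate 1 or 2 or wounded total replicate 2 ended the call, with adjusted p up to 0.0874. On the log2(FPKM + 1) scale, which understates the change of low genes, its value was 0.48. Slc1a5 (ASCT2), a glutamine exchanger, and Slc38a2 had log2 fold changes of -0.51 (adjusted p = 0.117) and -0.67 (adjusted p = 0.0544).

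Of the 8 tested members of a list of amino acid carriers linked to ATF4, the factor induced when amino acids run short, Slc3a2 and Slc7a11 rose and Slc7a5 fell. The median of the list was -0.19 on the log2 scale, beside -0.03 for all genes tested. In unwounded cells 3 of the 8 (Slc7a1, Slc7a11 and Slc38a2) were higher in cortical RNA, and in wounded cells 2 (Slc7a1 and Slc7a5) were, beside 6.62% and 7.62% of all genes.

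The remaining plasma membrane members that rose were Slc44a1 and Slc44a2, both choline carriers, the zinc importer Slc39a6 and the serotonin carrier Slc6a4. Slc44a1 went from 15, 14.2 and 18.5 CPM to 25.2, 27 and 24.5, without overlap, with a log2 fold change of 0.68 (SE 0.16, adjusted p = 0.0089). Without unwounded total replicate 1 or 2 its adjusted p was up to 0.0544. Slc44a2, outside the naming rule, went from 87.8, 86.6 and 95.7 CPM to 117, 124 and 149, without overlap (log2 fold change 0.53, SE 0.11, adjusted p = 0.00364), under every alternative. Slc39a6 went from 29.2, 32.8 and 40.9 CPM to 53.7, 49.2 and 46.9, without overlap (log2 fold change 0.54, SE 0.14, adjusted p = 0.0128), and its call was lost without unwounded total replicate 1 or 2, with adjusted p up to 0.0894. Slc6a4 rose by 0.74 (SE 0.23, adjusted p = 0.0344), a call lost without any unwounded total replicate or wounded total replicate 3, with adjusted p up to 0.152.

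All 3 organelle members that fell belong to the Slc35 family, which carries nucleotide sugars into the Golgi and endoplasmic reticulum. They are 6.82% of the 44 organelle members, near the 7.2% of all genes tested and 9.22% of coding genes of the same mean count that fell. They are also 3 of the 16 genes named Slc35, of which 0 rose by edgeR or DESeq2 (1 at an unadjusted p under 0.05). The 15 other than Slc35f6 had a median log2 fold change of -0.06, beside -0.03 for all genes, and 6 of them were positive. Organelle members that rose numbered 0 by edgeR, 3 at an unadjusted p under 0.05, and 1 by DESeq2. Slc35a3 went from 26.5, 25.8 and 25.2 CPM to 14.4, 14 and 11.5, without overlap, with a log2 fold change of -0.96 (SE 0.15, adjusted p = 0.000465). Slc35a4 went from 95.6, 96.1 and 89.7 CPM to 54.7, 59 and 56.5, with no overlap and a log2 fold change of -0.73 (SE 0.10, adjusted p = 0.000137). Both calls held under every alternative. Slc35b4 fell by 0.49 on the log2 scale (adjusted p = 0.0315), and its call was lost without any unwounded total replicate or wounded total replicate 1 or 2, with adjusted p up to 0.138.

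Slc25 members moved in both directions. Slc25a37 (mitoferrin 1, ENSMUSG00000034248, chr14:69241848-69285112), an iron importer, went from 50.1, 50 and 54.5 CPM to 38.2, 23.6 and 21.9 CPM. The groups did not overlap, wounded replicate 1 was the nearest to the unwounded values, and the log2 fold change was -0.88 (SE 0.17, adjusted p = 0.00245), under every alternative. Slc25a28 (mitoferrin 2), the second iron importer, had a log2 fold change of -0.16 (adjusted p = 0.43). Slc25a42, a carrier of coenzyme A, went from 8.12, 7.68 and 8.66 CPM to 2.91, 4.44 and 1.47, without overlap, with a log2 fold change of -1.47 (SE 0.38, adjusted p = 0.0157; 0.0598 without wounded total replicate 3). Slc25a36, which carries pyrimidine nucleotides, fell by 0.67 on the log2 scale (adjusted p = 0.0254), and its call was lost without unwounded total replicate 1 or wounded total replicate 2, with adjusted p up to 0.120.

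Of the 3 Slc25 members that rose, Slc25a30 went from 43.6, 46.1 and 43.2 CPM to 48.1, 63.5 and 83.8, with a log2 fold change of 0.55 (adjusted p = 0.0187) and the highest value in replicate 3. It was no longer called without unwounded total replicate 1 or 3 or wounded total replicate 3, with adjusted p up to 0.122. The citrate carrier Slc25a1 went from 154, 161 and 158 CPM to 180, 203 and 193, without overlap, at a log2 fold change of 0.28 (adjusted p = 0.0408), and Slc25a48 rose by 0.32 (adjusted p = 0.0378). Each of these last calls was lost without any 1 library other than wounded total replicate 1, with adjusted p up to 0.163 and 0.154. Slc25a5 at -0.16 (adjusted p = 0.331), Slc25a4 at 0.09 (adjusted p = 0.637) and Slc25a39 at -0.13 (adjusted p = 0.445) did not pass.

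Outside the 3 classes, 3 members chosen after their values were seen also passed. Slc8b1 (NCLX), a sodium and calcium exchanger placed in mitochondria and at the plasma membrane, went from 31, 27.8 and 36.5 CPM to 58.7, 53.3 and 56 CPM, without overlap, with a log2 fold change of 0.82 (SE 0.12, adjusted p = 0.000393). Slc45a4 went from 11.4, 12.2 and 13.8 CPM to 6.23, 3.37 and 5.21, without overlap, with a log2 fold change of -1.34 (SE 0.25, adjusted p = 0.00198). Both held under every alternative. Slc7a6os, which is not a carrier, fell by 0.87 on the log2 scale (adjusted p = 0.02; up to 0.085 without unwounded total replicate 1 or 2 or wounded total replicate 3). It lies opposite Slc7a6, and in libraries that do not keep the strand their reads cannot be told apart where they overlap.

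The count of 12 higher and 9 lower in total RNA became 19 higher and 17 lower without wounded total replicate 1. It was 3 higher and 6 lower without unwounded total replicate 1, and 5 higher and 7 lower without unwounded total replicate 2. Library size scaling gave 6 higher and 11 lower, and removing the gene length trend gave 19 higher and 7 lower. Fitting only the total libraries ended the calls of Slc3a2, Slc7a11, Slc25a1, Slc25a30, Slc25a48, Slc35b4 and Slc39a6, and library size scaling those of Slc3a2, Slc6a4, Slc7a11, Slc25a1, Slc25a48 and Slc39a6. Removing the length trend ended those of Slc25a36 and Slc35b4. On the log2(FPKM + 1) scale Slc25a42 was at -0.66, Slc45a4 at -0.63 and Slc35a3 at -0.59, all still called, and Slc7a11, Slc25a36, Slc35b4 and Slc43a2 were not called.

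**Figure D5:**
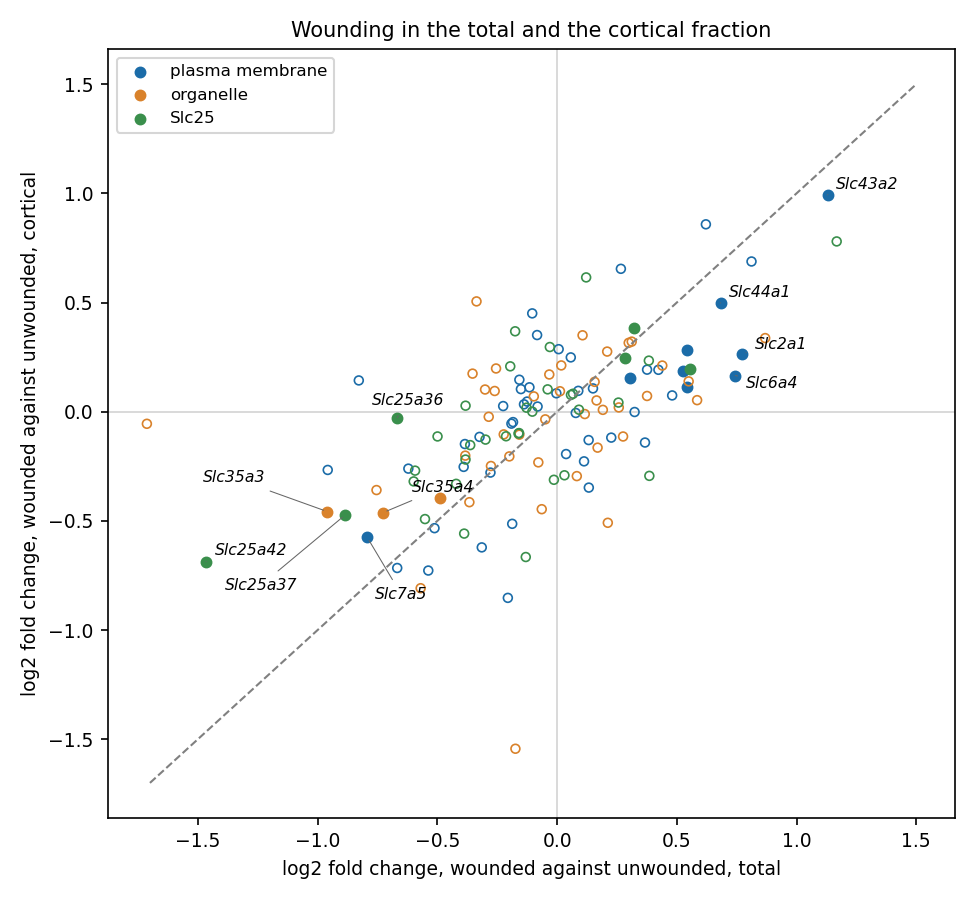
Log2 fold change of wounded against unwounded cells in total RNA (horizontal) and cortical RNA (vertical) for the plasma membrane, organelle and Slc25 members; filled points passed an adjusted p of 0.05 in total RNA, and the dashed line marks equal values. Slc2a1 lies right of the line at 0.77 and 0.27, and Slc7a5 lies low on both axes at -0.79 and -0.57.

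The same comparison was made in cortical RNA. The cortical libraries are those of both fraction comparisons. Of the 147 members 1 rose and 2 fell, beside 1.6% and 0.884% of all genes tested and 2.2% and 1.15% of the coding genes of the same mean count. The members' shares were thus near the background. Slc7a5 went from 155, 146 and 157 CPM to 94.1, 109 and 104 CPM. The groups did not overlap, with a log2 fold change of -0.57 (SE 0.11, adjusted p = 0.0125), and the call was lost without unwounded cortical replicate 1 or 3 or wounded cortical replicate 1 or 3, with adjusted p up to 0.0767. Slc35a4 went from 92, 89.9 and 96.8 CPM to 73, 62.7 and 66.4, without overlap, with a log2 fold change of -0.46 (SE 0.10, adjusted p = 0.0161). Its call was lost without any unwounded cortical replicate or wounded cortical replicate 2 or 3, with adjusted p up to 0.0951. The member that rose was Slc8b1, from 44.4, 39.9 and 46.3 CPM to 62.3, 69.9 and 57.2 (log2 fold change 0.54, adjusted p = 0.0283; lost without any 1 of 8 libraries, with adjusted p up to 0.137). The count of 3 was 0 without unwounded cortical replicate 1 or 3 or wounded cortical replicate 3, 1 without unwounded or wounded cortical replicate 2, and 15 without wounded total replicate 1. Library size scaling ended the calls of Slc7a5 and Slc8b1.

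Of the members that follow, all but Slc38a2 had passed the threshold for wounding in total RNA. Their values in cortical RNA were these. Slc2a1 went from 119, 104 and 110 CPM to 136, 146 and 117, which overlap, with a log2 fold change of 0.27 (adjusted p = 0.3). Slc7a11 was at 0.11 (adjusted p = 0.746), Slc3a2 at 0.16 (adjusted p = 0.41) and Slc43a2 at 0.99 (adjusted p = 0.0818). Slc35a3 was at -0.46 (adjusted p = 0.107), Slc25a37 at -0.47 (adjusted p = 0.156) and Slc38a2 at -0.72 (adjusted p = 0.0965). None of these 7 passed in cortical RNA, but that does not show a difference between the fractions.

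That difference was tested as an interaction, the log2 fold change between fractions in wounded cells less the same value in unwounded cells. It called 0 of the 147 members, with 10 at an unadjusted p under 0.05 (8 with DESeq2, which called 0), beside 0.0221% higher and 0.103% lower among all genes tested and 0.0206% and 0.144% of the coding genes of the same mean count. The interaction was -0.51 (SE 0.18, adjusted p = 0.402) for Slc2a1, -0.43 (SE 0.19, adjusted p = 0.518) for Slc7a11, -0.34 (SE 0.15, adjusted p = 0.518) for Slc44a2 and 0.50 (SE 0.21, adjusted p = 0.49) for Slc35a3. Without wounded total replicate 1 the mitoferrin Slc25a37 passed, at 0.71 (adjusted p = 0.0275), against 0.41 (adjusted p = 0.662) with it.

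Transport genes that do not carry the Slc name were described by lists. Of 29 carriers and partner proteins 25 were tested. In cortical RNA of unwounded cells 2 were higher and 3 lower, beside 6.62% and 7.59% of all genes. In wounded cells 3 were higher and 3 lower, beside 7.62% and 8.03%. These counts were near the background. Basigin (Bsg), the chaperone of the lactate carriers Slc16a1 and Slc16a3, was lower in cortical RNA in both states, at -0.52 (SE 0.10, adjusted p = 0.00281) and -0.59 (SE 0.10, adjusted p = 0.00136). The pyruvate carrier subunit Mpc2 was lower too, at -0.80 (adjusted p = 0.00368) and -0.78 (adjusted p = 0.00444), as was Ucp2, a carrier of the Slc25 type named otherwise, at -0.60 (adjusted p = 0.00262) and -0.37 (adjusted p = 0.0406).

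Of 20 ABC transporters tested, which are ATP-driven pumps with long coding sequences (median 3901.5 bases), 3 were higher in unwounded and 2 in wounded cortical RNA, beside 6.62% and 7.62% of all genes. The unwounded calls included Abcc1 and Abcc10, at 0.49 and 0.87 (adjusted p = 0.0183 and 0.0303). Of the 16 subunits of the V-ATPase, the proton pump that drives many lysosomal and vesicle carriers, 7 rose on wounding in total RNA, beside 8.39% of all genes. In cortical against total RNA 2 of the 16 were higher and 3 lower in unwounded cells, beside 6.62% and 7.59% of all genes. In wounded cells 0 were higher and 4 lower, beside 7.62% and 8.03%. Those that rose on wounding included Atp6v0d1 at 0.65 (SE 0.10, adjusted p = 0.000481) and Atp6v1a at 0.69 (SE 0.11, adjusted p = 0.000657). The 14 carriers of the lysosome and endosome had a median log2 fold change of 0.06 in that comparison.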

How the data were processed

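RNA from 12 libraries was counted per gene: the authors deposited raw counts and, beside them, FPKM values, with units taken from the values and headers. HISAT2, CASAVA and the build mm10 are named in the submitters' processing notes; the counting tool is not given in the sources used here. Per the labels' protocols polyadenylated RNA was captured on poly-T beads, cDNA was primed at random, and the libraries did not keep the strand. In the 8069 to 9896 genes checked per library, the deposited FPKM equalled the count divided by gene length and by 1 size per library (0.825 to 1.10 of its total).

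Counts were filtered with filterByExpr, scaled with TMM (factors 0.831 to 1.10) and fitted with edgeR 4.0.16 (quasi-likelihood, R 4.3.3), 1 mean per group over all 12 libraries, two-sided, with Benjamini-Hochberg adjustment over 13571 genes at 0.05. SE denotes the error of a fitted log2 value. P-values rest on the spread between the 3 libraries of a group, estimated jointly over all 4 groups. All 147 members passed the filter. Alternatives were RLE and library size scaling, no filter, DESeq2 1.42.0, only the groups compared, a replicate block, a gene length trend removed (loess, span 0.5), limma 3.58.1 on log2 FPKM plus 1 or 0.1, member thresholds of 20 and 100, and leaving out each library. Same-numbered libraries deviated together by correlations of -0.0437 to 0.259. The highest, 0.181 and 0.259, were between unwounded and wounded total libraries of replicates 1 and 2. With 3 libraries a group, such correlations cannot show or exclude pairing. The labels do not state pairs, so the numbers were not taken as pairs. On simulated data for the unwounded comparison (13127 genes, 200 changed), edgeR recovered 94% at 1 log2 unit with 5.83% of calls false. Every simulated gene had the same dispersion, with no length trend and no library set apart. These rates therefore need not hold for the real calls. All per-sample columns were used.

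Named genes were up to 5 called members per class, direction and comparison, plus 25 listed members; others are marked. Some genes are not reported here. The members, classes and lists were chosen with earlier results of these data known, and which values that missed the threshold are printed was decided after seeing them. Promoters are from RefSeq (GRCm38.p6), matched by symbol for 115 of 147 members. Figures used matplotlib 3.10.9.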

Additional observations from a re-analysis of the deposited data

How the results depend on the processing

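Of the 64 calls made for members, 14 held under every alternative and 0 changed sign. The number of members called was 21 in unwounded and 19 in wounded cells between fractions, 21 and 3 for wounding in total and cortical RNA, and 0 for the interaction. In that order of the first 2, library size scaling gave 34 and 46, removing the gene length trend 13 and 4, the same trend with the replicate block 12 and 3, and limma on log2 FPKM plus 1 and plus 0.1 gave 12 and 12 each. Fitting only the groups compared gave 3 in wounded cells. Wounding in cortical RNA gave 1 with library size scaling, 9 with no filter, 8 with DESeq2, 15 with only the groups compared and 5 with the length trend removed. Leaving out 1 library gave 6 to 32, 6 to 29, 9 to 36, 0 to 15 and 0 to 1 in the order of the comparisons; the highest values came without wounded total replicate 1. The replicate block alone gave 17, 18, 20, 3 and 0, and 6 of the 12 libraries correlated best with their own number.

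Of 118 values that did not pass, counting every gene of the naming rule, 35 changed sign under some alternative; of those printed above, Slc25a4, Slc25a5 and Slc7a11 did so between fractions. In unwounded cells Slc25a4 was at 0.13 (library size), 0.10 (length) and 0.10 (length with block), and Slc25a5 at 0.10, 0.16 and 0.16. In wounded cells Slc25a4 was at 0.087 (library size), Slc25a5 at 0.18, 0.084 and 0.099 and from -0.11 to 0.043 with 1 library left out (the last without wounded total replicate 1), and Slc7a11 at -0.076 and -0.075 (length, without and with block). The cause was not tested. The interaction was not run on only the groups compared, since it uses all 4. Depth limits the low members: the lowest had a mean of 51.7 counts.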
